A study of Mus musculus with 2 samples.

Results

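The genes described here are 10 genes that read out, or sit beside, the p53 arm of growth control: Trp53, which codes for p53, and Mdm2, Cdkn1a, Ccng1, Phlda3, Trp53inp1, Gadd45a and Gdf15, known p53 targets, with the cyclin-dependent kinase (CDK) inhibitor genes Cdkn1b and Cdkn2a. They were taken by symbol and not by a threshold on these data, though with earlier results of the data known, and make up 10 of the 28692 genes counted. Of the 10, 9 reached a mean level of 10 CPM (a gene's share of its library's transcripts on the usual CPM scale) over both libraries, as did 6967 genes in all, and Trp53inp1 did not.

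The cells came from MC38 tumours, a mouse colon carcinoma model, of strain C57BL/6 albino. Tumour fragments were embedded in collagen in a microfluidic chip and given antibody at 10 µg/mL, and after 6 days tumour cells were sorted and counted with the 10x Genomics 3′ kit. One library was kept with control IgG (clone 2A3) and the other with an antibody against PD-1 (aPD-1, clone RMP1-14), the inhibitory receptor of T cells. The series describes its question as the transcription of the tumour cells left after PD-1 blockade. Both libraries share the tumour model, the fragments with whatever host cells they still held, and the sort, whose markers no source used here gives. With 1 library per antibody there is no replicate and no test. Antibody cannot be told apart from library, sorting, loading or cell calling, and every interval below is a 95% interval that covers counting error only.

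Cells were taken at 5000 or more unique molecular identifiers (UMIs, each standing for 1 captured transcript) and at most 10% mitochondrial UMIs. That left 2198 cells under IgG (median depth 20663 UMIs, 49422640 in all) and 3356 under aPD-1 (median depth 16577 UMIs, 61462778 in all). The mitochondrial UMIs of the median cell were 2.92% of its total under IgG and 3.6% under aPD-1, and 8 barcodes occurred in both libraries. Against the label, the epithelial markers were close to 0, with summed levels of 0.344 CPM (IgG) and 0.114 CPM (aPD-1) over 6 genes, of which 2 and 4 were at 0. Fibroblast markers summed to 986 and 663 CPM over 8 genes, of which 1 was at 0 in IgG and none in aPD-1. Macrophage markers summed to 30.6 and 5.42 CPM over 9 genes, and endothelial markers to 39.3 and 7.61 CPM over 6, with none at 0. T, NK and B cell markers summed to 4.21 and 4.49 CPM over 9 genes, of which 3 and 2 were at 0. The cells are therefore called sorted cells here, and the part of these markers in the results was not tested beyond the values given below.

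p53 is a transcription factor that damaged or stressed cells stabilise, and Mdm2, itself a p53 target, marks p53 for degradation and closes a feedback loop. Cdkn1a codes for p21, which binds cyclin-CDK complexes and stops the cell cycle, while Cdkn1b codes for p27, a relative held mainly by protein turnover. Cdkn2a codes for 2 proteins from separate first exons, p16Ink4a, which blocks Cdk4 and Cdk6, and p19Arf, which blocks Mdm2. Gadd45a and Gdf15 also answer to the integrated stress response through ATF4 and CHOP, so neither is a reporter of p53 alone.

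A promoter window of Cdkn1a is shown because this gene was the one past the fold limit between the libraries. One of Gadd45a is shown because the gene belongs to the pair most strongly correlated across cells. RefSeq sequence of build GRCm38.p6 was matched by symbol and gave 12 windows for 9 of the 10 genes. Each window ran from 250 bases before to 50 bases after a transcript start, and only the bases before the start are printed. Both strands were searched for the p53 half-site consensus of 10 bases, for 2 half-sites in a row with at most 1 mismatch over the 20 bases, and for TGATGNAA and TGANTCA, letters read by ATF4-type and AP-1 factors. Capitals mark p53 half-site matches and the 20-base match, which in Cdkn1a contains one of the half-sites. Cdkn1a had 2 windows. The one printed lies at chr17:29090729-29090978 on the plus strand, and the other, at chr17:29093519-29093768, held no match of any of these motifs. The Gadd45a window lies at chr6:67037408-67037657 on the minus strand.
Cdkn1a: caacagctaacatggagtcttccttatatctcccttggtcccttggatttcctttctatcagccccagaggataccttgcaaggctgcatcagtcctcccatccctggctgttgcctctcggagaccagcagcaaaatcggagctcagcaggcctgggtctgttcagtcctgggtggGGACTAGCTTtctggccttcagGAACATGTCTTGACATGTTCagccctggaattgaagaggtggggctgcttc
Gadd45a: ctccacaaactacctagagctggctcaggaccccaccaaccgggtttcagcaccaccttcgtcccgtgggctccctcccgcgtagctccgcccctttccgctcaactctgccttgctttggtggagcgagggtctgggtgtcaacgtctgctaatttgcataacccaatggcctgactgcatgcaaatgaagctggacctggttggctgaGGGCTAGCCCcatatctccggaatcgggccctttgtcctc

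A half-site occurred in windows of 5 genes, against 8.36% of all 32851 windows searched. Cdkn1a held 2, both in the window printed, and Mdm2 (GAACTTGCCT), Trp53 (GGACTTGCCC), Ccng1 (GGGCAAGCCT) and Gadd45a (GGGCTAGCCC) held 1 each. The 20-base match with at most 1 mismatch was rarer, in 0.0883% of all windows, and 2 of the 29 windows with it belonged to genes described here. These were Cdkn1a, whose match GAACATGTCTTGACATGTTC lies at chr17:29090928-29090947, and Ccng1, whose match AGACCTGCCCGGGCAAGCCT lies at chr11:40755462-40755481 on the minus strand. No half-site was found in the windows of Cdkn1b, Cdkn2a, Phlda3 or Gdf15. TGATGNAA, found in 3.97% of all windows, and TGANTCA, found in 7.81%, were in none of the 12. A match describes letters, and a window without one says nothing of the factor.

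By level the genes kept nearly one order in both libraries. The 3′ kit counts transcript ends, so CPM is not scaled by transcript length. Phlda3, which codes for a PH-domain protein that restrains Akt, was highest, at 115 CPM under IgG and 122 CPM under aPD-1. Trp53 followed at 104 and 86.9 CPM, Cdkn1a at 55.4 and 85.3, Gadd45a at 52.1 and 46.3, Gdf15 at 36.3 and 35.3, Mdm2 at 34.1 and 34.4, and Cdkn2a at 29.9 and 26.9. Only Cdkn1b, at 27.0 and 19.2 CPM, and Ccng1, which codes for cyclin G1, at 22.7 and 23.4 CPM, exchanged places. In IgG the intervals of the neighbours Cdkn1a (53.3 to 57.5 CPM) and Gadd45a (50.1 to 54.2 CPM) overlapped, and in aPD-1 those of Trp53 (84.6 to 89.3 CPM) and Cdkn1a (83.0 to 87.6 CPM) did. Trp53inp1, a p53-induced autophagy gene, was nearly silent, with 50 UMIs (1.01 CPM) under IgG and 45 UMIs (0.732 CPM) under aPD-1.

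**Figure D1:**
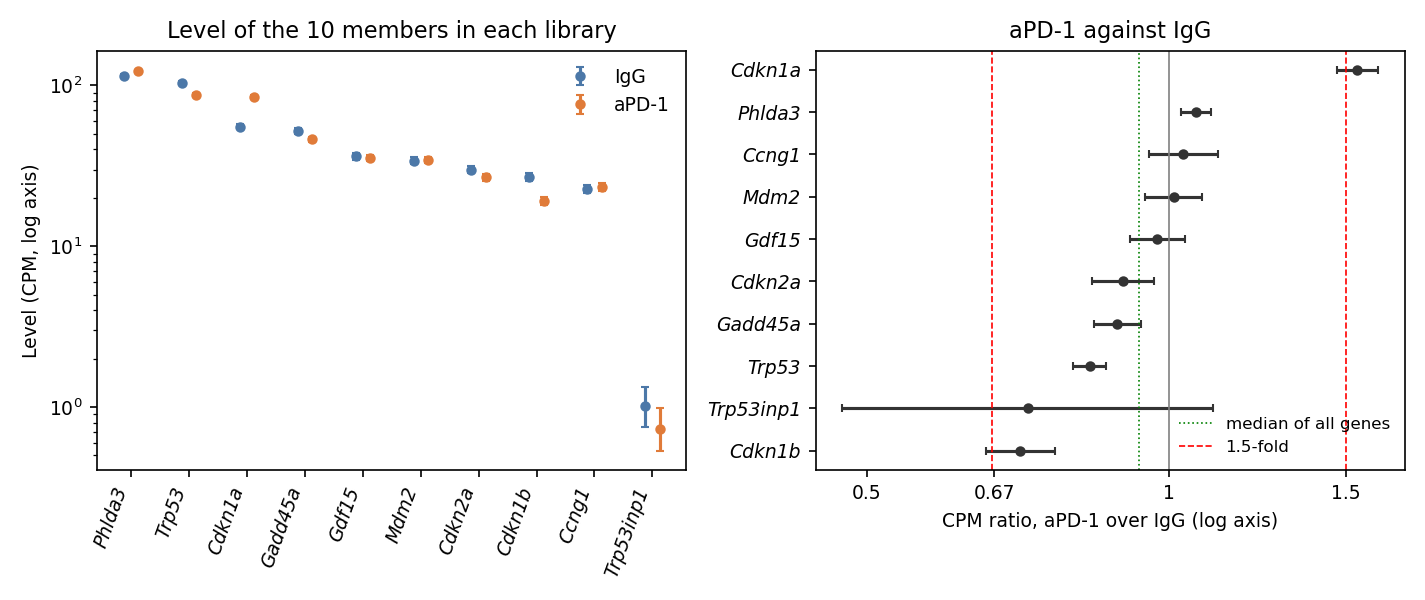
Left, level of each gene in CPM (log axis) in the IgG and aPD-1 libraries with Poisson 95% intervals. Right, ratio of the levels, aPD-1 over IgG (log axis), with conditional binomial 95% intervals, the 1.5-fold limits (dashed) and the median of all genes (dotted); Cdkn1a, at 1.54, is the one gene outside the limits.

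Cdkn1a was the one gene past 1.5-fold between the libraries. It had 2738 UMIs under IgG and 5241 under aPD-1, a ratio of 1.54 (interval 1.47 to 1.61), which ranked 30 from the highest among 6967 genes. So 1 of 9 genes of at least 10 CPM was called, in the higher direction, against a background of 3.55% of all such genes called in either direction, 0.531% higher and 3.01% lower. The interval reaches below the 1.5-fold limit. With cells held to at most 5% mitochondrial UMIs the ratio was 1.47, and the count of called genes was then 0, against 3.31% of all genes. With the limit lowered to a log2 ratio of 0.32 in size the count was 2, Cdkn1b being added as a lower gene, against 21.1% of all genes, and with a 2-fold limit it was 0, against 0.388%. The gene overlaps a gene model on the opposite strand, AC167363.2, as Gadd45a does with E230016M11Rik. No source used here says whether counting used strand.

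Cdkn1b and Cdkn2a were lower in aPD-1 but within the fold limit. Cdkn1a was the one CDK inhibitor gene of at least 10 CPM past it. Cdkn1b had 1335 UMIs under IgG and 1180 under aPD-1, a ratio of 0.711 (0.657 to 0.769), rank 399 from the lowest of 6967. Cdkn2a stood at a ratio of 0.899 (0.838 to 0.965), rank 2861 from the lowest, and the median ratio of all genes was 0.932. Its p16Ink4a and p19Arf transcripts end in the same exons, so these counts do not separate them. Among the CDK inhibitors listed beside these, 4 of 5 reached 10 CPM and none was past 1.5-fold: Cdkn2d (p19Ink4d) was at 1.32, Cdkn2b (p15Ink4b) at 0.961, Cdkn2c (p18Ink4c) at 0.913 and Cdkn3, a CDK-directed phosphatase, at 0.736. Cdkn1c (p57) had 2 UMIs under IgG and 0 under aPD-1.

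Trp53 and its feedback gene did not follow Cdkn1a. Trp53 had 5155 UMIs under IgG and 5342 under aPD-1, a ratio of 0.833 (0.802 to 0.866). Mdm2 had 1683 and 2113 UMIs, a ratio of 1.01 (0.947 to 1.08). The ratios of Ccng1 (1.03, 0.954 to 1.12), Phlda3 (1.06, 1.03 to 1.10), Gdf15 (0.973, 0.914 to 1.04) and Gadd45a (0.887, 0.841 to 0.936) lay between those of Trp53 and Cdkn1a. Trp53inp1 had a ratio of 0.724 with an interval of 0.473 to 1.11, too wide at this depth to show a direction. The median log2 ratio of the 9 genes was -0.04, and that of all 6967 genes was -0.10, with 32.9% of genes above a ratio of 1. Gdf15 changed side when the median of all genes was set to a ratio of 1, with a log2 ratio of 0.06 in place of -0.04.

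Other p53 targets listed with them were mostly level too. Of 40 such genes, 19 reached 10 CPM, and 0 were 1.5-fold higher and 2 were lower, with a median log2 ratio of -0.05. The lower genes were Ddit4, an inhibitor of mTORC1 also induced by hypoxia and ATF4, from 290 to 170 CPM (ratio 0.586), and Fas, the death receptor, from 25.9 to 15.4 CPM (ratio 0.595). The highest was Aen, a nuclease gene, from 23.6 to 31.1 CPM (ratio 1.32), and the cell death genes Bax and Bbc3 were at 1.10 and 1.04. Among genes that regulate p53, 10 of 13 matched genes reached 10 CPM and none was past 1.5-fold, Myc being lowest at 0.841 and Usp7 highest at 1.09. Among G1 cyclins, their kinases, Rb and E2F genes, 14 of 16 reached 10 CPM and none was past it, with E2f1 highest at 1.36 and Pcna lowest at 0.770. The ATF4 and CHOP list had 0 of 14 higher and 1 lower, again Ddit4, while Ddit3, which codes for CHOP, was at 1.37 (88.8 to 122 CPM). Gadd45b, at 90.4 and 59.3 CPM (ratio 0.656), was past the limit and Gadd45g, at 165 and 118 CPM (ratio 0.713), was not. These lists were chosen with earlier results of these data known, and the counts are to be read against the same 3.55%.

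The Cdkn1a ratio was of similar size without the cells highest in macrophage, endothelial or fibroblast markers. Leaving out the 44 IgG and 25 aPD-1 cells with 3 or more UMIs of macrophage or endothelial markers gave a ratio of 1.57. Leaving out the 10% of cells highest in fibroblast markers, 302 IgG and 252 aPD-1 cells, gave 1.52, with cells of up to 11 fibroblast marker UMIs per 5000 still in. Within those fibroblast-marker-high cells the ratio was 1.54. RNA outside cells held Cdkn1a at the same level as cells: in aPD-1 barcodes under 500 UMIs it was at 87.5 CPM, against 85.3 CPM in aPD-1 cells. The deposited IgG matrix held no such barcodes, so free RNA could not be compared between the libraries. Over the 9 genes of at least 10 CPM, the level under 500 UMIs relative to cells ran from 0.536 for Cdkn2a to 1.5 for Cdkn1b.

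Cdkn1a was also seen in a larger share of aPD-1 cells. After every cell was thinned to 5000 UMIs, which no kept cell fell short of, 20.4% of IgG cells (18.7 to 22.1%) and 28.8% of aPD-1 cells (27.3 to 30.4%) had a Cdkn1a UMI. Unthinned, the shares were 46.3% and 55.4%, even though the aPD-1 cells were shallower. Cdkn1b went the other way, at 13.8% of IgG and 9.91% of aPD-1 cells, and Trp53 was at 36.9% and 31.2%. The shares of the remaining genes of at least 10 CPM differed by at most a few points: Phlda3 at 40.4% and 42.3%, Gadd45a at 17.3% and 14.9%, Mdm2 at 16.3% and 16.2%, Cdkn2a at 14.4% and 12.9%, Gdf15 at 13.6% and 12.9%, and Ccng1 at 10.7% and 11.3%. No cell type known to lack these genes was present in number. In the macrophage-marked cells a Cdkn1a UMI was found in 39.4% of 14 IgG cells (17.7 to 71.1%) and 18.3% of 18 aPD-1 cells (3.58 to 41.4%), intervals that hold the shares of all cells. How much of each share is free RNA was not tested.

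A larger share of aPD-1 than of IgG cells reached every number of Cdkn1a UMIs up to 8. Per 5000 UMIs, 2 or more Cdkn1a UMIs were found in 5.74% of cells under IgG and 9.35% under aPD-1, and 5 or more in 0.264% and 0.542%. The top 5% of cells held 44.7% of Cdkn1a UMIs in IgG and 35.7% in aPD-1. The variance over the mean (Fano factor, 1 for pure counting noise) was 1.65 and 1.69 for Cdkn1a, against a median of 1.07 and 1.09 for genes of similar level.

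**Figure D2:**
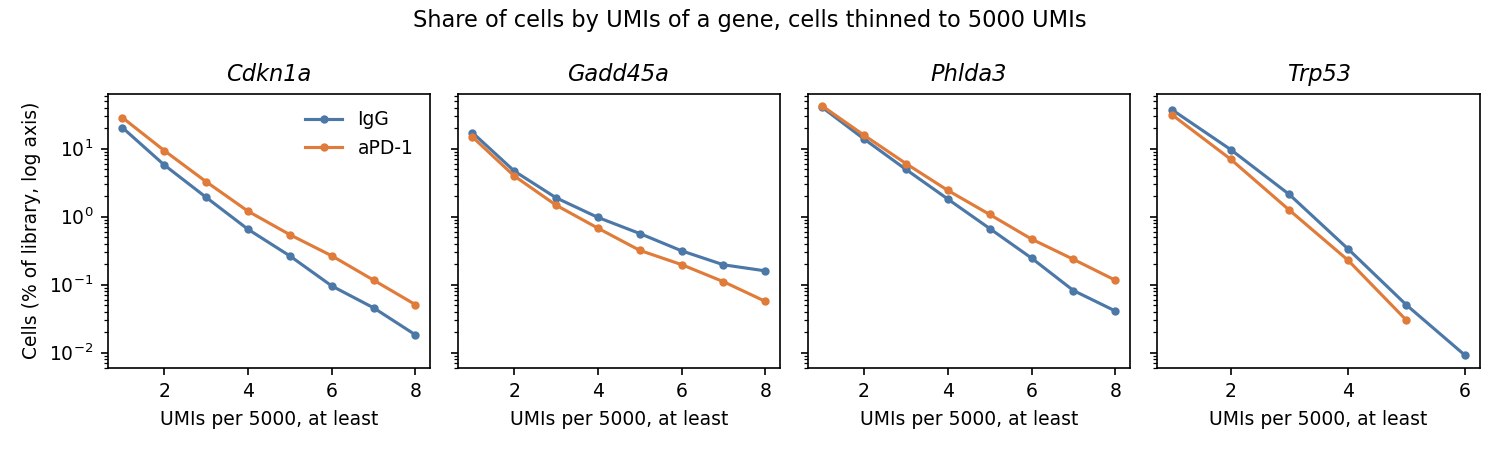
Share of cells (%, log axis) with at least the given number of UMIs of Cdkn1a, Gadd45a, Phlda3 and Trp53, in cells thinned to 5000 UMIs, as a mean of 10 thinnings. The aPD-1 line of Cdkn1a lies above the IgG line at each count shown (20.4% and 28.6% at 1 UMI), while for Trp53 the aPD-1 line lies below the IgG line.

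The stress genes were the most uneven across cells. Gadd45a had a Fano factor of 2.35 in IgG and 2.15 in aPD-1, with 53.6% and 54.9% of its UMIs in the top 5% of cells, and single cells held up to 63 and 81 UMIs of it. Gdf15, a secreted stress cytokine, was next at 1.78 and 1.77, with 54.9% and 53.8% of its UMIs in those cells. The share in the top cells does not set these genes apart, because it is also high for genes with few UMIs. Cdkn1b in aPD-1 had 54.5% there with a Fano factor of 1.05. Phlda3 stood at 1.48 and 1.61. Trp53, at 1.12 in both, and Ccng1, at 1.02 and 1.01, were near the noise of other genes of their level, whose medians were 1.11 and 1.09 for Trp53 and 1.04 in both for Ccng1. Mdm2, at 1.08 and 1.07, and Cdkn1b, at 1.08 and 1.05, were near it too.

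Across single cells most pairs of these genes were only weakly correlated. Of the 45 pairs, 44 had a Pearson r below 0.1 in size in each library. It was taken on log counts thinned to 5000 UMIs in 2198 and 3356 cells, which share a library. Sparse counts pull such values towards 0. Cdkn1b, Cdkn2a, Mdm2 and Ccng1 reached an r of 0.1 with none of 6966 genes in either library, and Trp53inp1 was nearly silent. The limit therefore says little about pairs that hold one of these genes. Trp53 and Mdm2 had an r of -0.01 in IgG and 0.01 in aPD-1, and Cdkn1a and Mdm2 0.05 and 0.03. The exception was Gadd45a with Gdf15, at 0.25 and 0.19. Both were found together in 4.64% of cells under IgG and 3.6% under aPD-1, 1.97 and 1.89 times what their separate shares give. Among the pairs of Cdkn1a with genes of at least 10 CPM, that with Gdf15 had the highest observed over expected joint detection in both libraries, at 1.4 and 1.3 times, with an r of 0.07 and 0.08 that reached 0.16 and 0.17 without thinning.

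**Figure D3:**
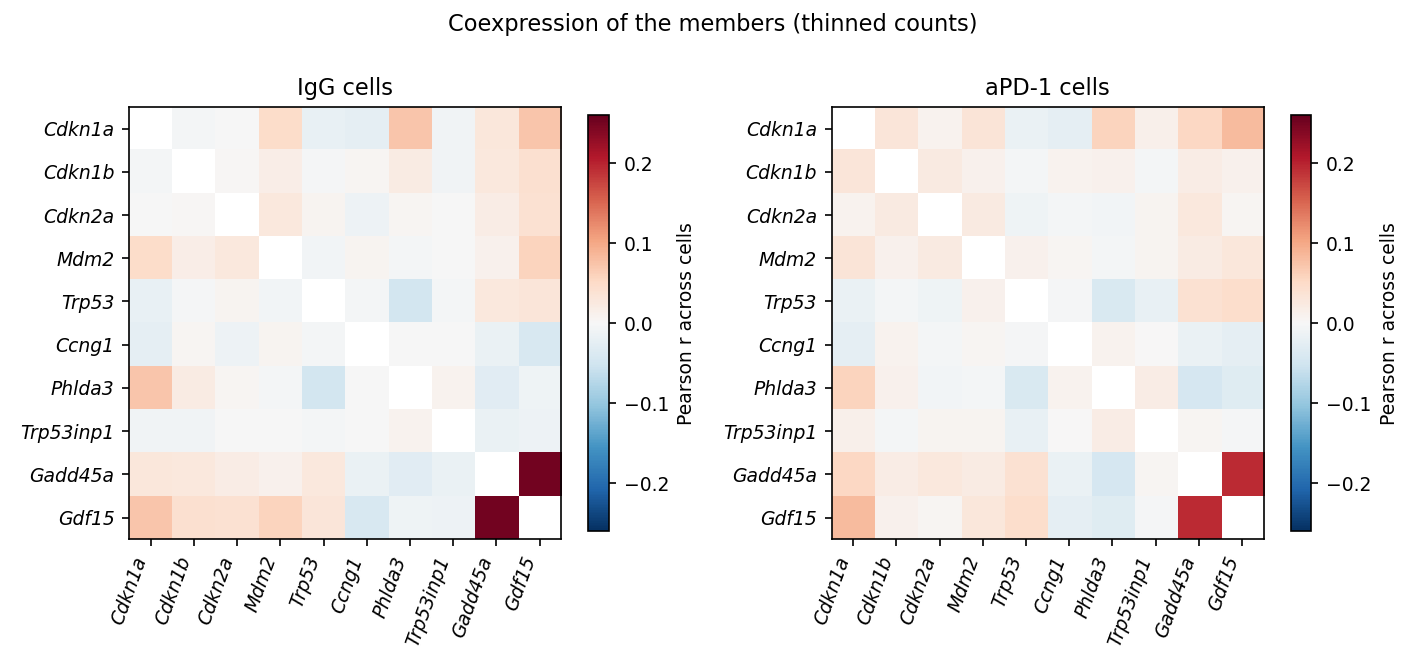
Pearson r across cells for each pair of the 10 genes, in IgG cells (left) and aPD-1 cells (right), from log counts thinned to 5000 UMIs. The Gadd45a and Gdf15 square (0.25 and 0.19) stands out, and the other 44 pairs lie within 0.1 of 0.

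The genes most like Cdkn1a across cells were not p53 targets from the list. The 8 with the highest r in IgG were Lgals3 (galectin-3, r 0.22), Ero1l (0.20), the metallothioneins Mt2 and Mt1 (0.20 each), Ndrg1 (0.17), and Klf4, Bnip3 and Klf2 (0.16, 0.15 and 0.15). In aPD-1 the same 8 had an r of 0.13 to 0.21 and all ranked among the first 12 of 6643 genes. Ero1l, Ndrg1 and Bnip3 are known hypoxia-responsive genes, and metallothioneins bind zinc. The 19 other p53 targets had a median r with Cdkn1a of 0.00 in both libraries, and 0 of them reached 0.1. Few genes of any kind did, 26 of 6966 in IgG and 23 in aPD-1, so a count of 0 in 19 says little. The genes most like Gdf15 were Gadd45a (0.25), Trib3 (0.21), Zfos1 (0.20), Hspa9 (0.17), Slc3a2 (0.17), Plk2, Chac1 and Ier3 (0.16 each), with an r of 0.08 to 0.19 in aPD-1. Trib3, Chac1 and Slc3a2 are known ATF4 or CHOP targets, and Plk2 is a known p53 target.

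**Figure D4:**
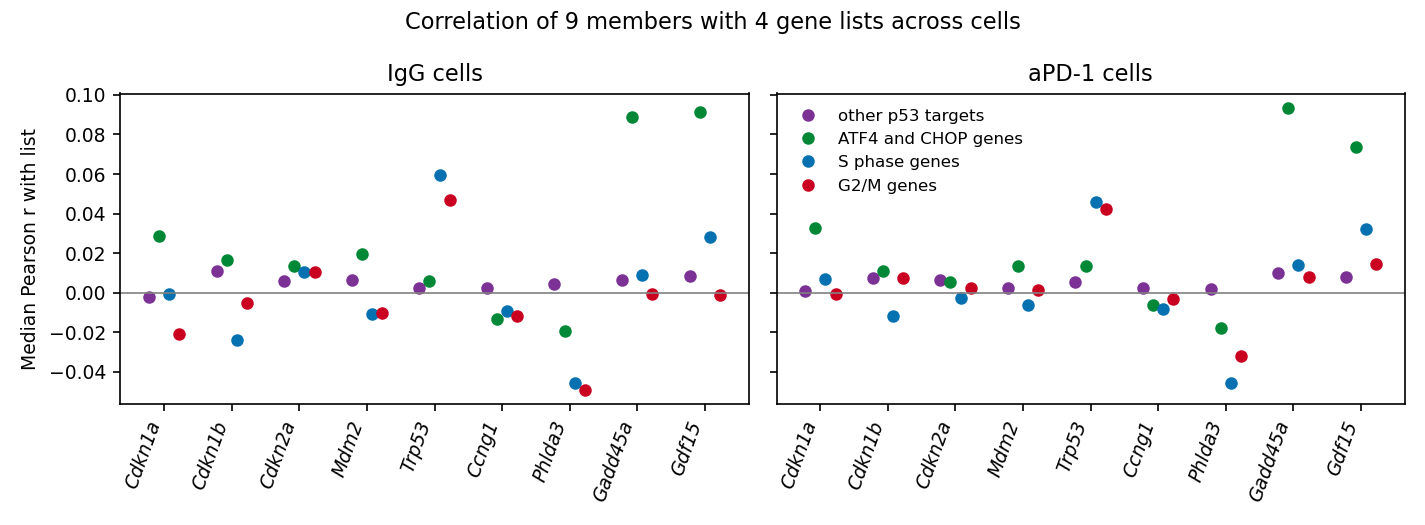
Median Pearson r across cells between each of 9 genes and the genes of 4 lists, in IgG cells (left) and aPD-1 cells (right). Gadd45a and Gdf15 have their highest medians with the ATF4 and CHOP list (0.09 each in IgG, 0.09 and 0.07 in aPD-1), Trp53 with S phase genes, and the medians of Phlda3 with both cell cycle lists are below 0.

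With the 14 ATF4 and CHOP genes, Gadd45a had a median r of 0.09 in both libraries, and 6 of them in IgG and 7 in aPD-1 reached 0.1. For Gdf15 the medians were 0.09 and 0.07, with 7 and 5 at 0.1 or more. Of 6966 genes in all, 59 in IgG and 55 in aPD-1 reached 0.1 with Gadd45a, and 53 and 29 with Gdf15. With the 19 p53 targets the medians of both genes were 0.01, and Plk2 alone reached 0.1 in each library.

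More of all genes were 1.5-fold higher in both libraries when cells were sorted by Gdf15 (4.95%) than by Cdkn1a (0.775%). The Gdf15 groups with 2 or more UMIs hold fewer cells and so carry more counting error, and the shares are not on equal terms. The ranges of UMIs per cell are cuts in a count and not cell types, and the contrasts within them carry no test. Cells with 2 or more Gdf15 UMIs per 5000 numbered 84 in IgG and 89 in aPD-1, and cells with 0 numbered 1884 and 2911. Gadd45a was at 231 CPM in the former and 38.4 in the latter in IgG, and at 188 and 36.3 CPM in aPD-1, ratios of 6.03 and 5.17. Cdkn1a was higher in the same cells by ratios of 1.66 and 2.15. Of the other 6 genes of at least 10 CPM none reached 1.5-fold in both libraries, with Mdm2 at 1.62 and 1.32 and Trp53 at 1.3 and 1.5. Of the ATF4 and CHOP genes 9 of 14 were 1.5-fold higher in both libraries, against 4.95% of all genes, among them Trib3 (4.02 and 3.72), Chac1 (3.26 and 3.77), Asns (2.28 and 2.67) and Ddit3 (2.19 and 1.95). Of the p53 targets 4 of 19 were: Bbc3, Plk2, Rrm2b and Sesn2, which is also one of the 9. Of the S phase genes 8 of 39 were, and S cells made up 21.4% of these cells in IgG (13.2 to 31.7%) and 28.1% in aPD-1 (19.1 to 38.6%), against 14.3% and 16% of the cells with 0. Fibroblast markers moved with this contrast, 4 of 6 being 1.5-fold lower in both libraries, against 2.20% of all genes, and their part in it was not tested. In the cells above the limit on fibroblast markers Gadd45a was at 23.8 CPM against 55.9 in the others in IgG, and at 15.4 against 48.2 CPM in aPD-1. Phlda3 had the opposite order, at 151 against 110 CPM in IgG and 186 against 118 CPM in aPD-1, and its median r with the 6 fibroblast markers was 0.07 in both libraries.

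Cells with 2 or more Cdkn1a UMIs per 5000 numbered 116 in IgG and 306 in aPD-1, and cells with 0 numbered 1754 and 2397. Of the 8 other genes of at least 10 CPM, Gdf15 alone was 1.5-fold higher in both libraries (1.56 and 2.59), against 0.775% of all genes. Mdm2 was at 1.39 and 1.36, Phlda3 at 1.37 and 1.19, Trp53 at 0.815 and 0.978, and Gadd45a at 0.906 in IgG and 2.51 in aPD-1. Of the 19 p53 targets Ccng2, a cyclin gene, was higher (2.14 and 1.71) and Psrc1, a spindle gene, lower (0.316 and 0.563). Of 41 G2/M genes 5 were lower in both libraries (Ccnb2, Cdc20, Cenpa, Hmmr and Psrc1), against 0.388% of all genes, as was Cdkn3 (0.606 and 0.496). No G2/M gene was 1.5-fold higher in both, though Top2a was at 1.36 and 1.63 and Aurkb at 1.60 and 1.27. Of the cells with 2 or more Cdkn1a UMIs 12.9% in IgG (7.42 to 20.4%) and 15.0% in aPD-1 (11.2 to 19.5%) were in the G2/M class defined next, against 21% and 16.9% of the cells with 0. The S class went opposite ways, with 12.1% in IgG (6.76 to 19.4%) and 22.2% in aPD-1 (17.7 to 27.3%), against 15.4% and 16% of the cells with 0.

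Cells were placed in an S or G2/M class when the share of their UMIs in 42 S phase or 52 G2/M genes lay over 1 SD above the median of all cells, and otherwise had no call. The classes are ranges of a score: 156 IgG and 277 aPD-1 cells lay within 0.1 SD of a limit. None of the 10 genes is on these lists. S cells made up 15.4% of IgG and 16.8% of aPD-1 cells, and G2/M cells 19.8% and 16.9%.

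Cdkn1a was higher in aPD-1 in every class. It was at 60.0 and 84.0 CPM in cells with no call, a ratio of 1.40 (1.32 to 1.49), and at 60.1 and 97.8 CPM in S cells, a ratio of 1.63 (1.48 to 1.80). In G2/M cells it was at 39.1 and 75.2 CPM, a ratio of 1.93 (1.71 to 2.17). The ratio was thus under the 1.5-fold limit in the class that holds most cells. Its interval there did not overlap that in G2/M, but it did when the class limits were set at 1.5 SD, where the ratios were 1.46 with no call (1.38 to 1.54), 1.74 in S and 1.73 in G2/M cells (1.5 to 2.0). The difference between classes was not tested. In IgG the G2/M level was 0.651 of that with no call (0.584 to 0.724), and in aPD-1 it was 0.895 (0.830 to 0.965).

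Cdkn1b had ratios under 1 in every class, in the same order over the classes as those of Cdkn1a. With no call it was at 30.2 CPM in IgG and 19.6 in aPD-1, a ratio of 0.651 (0.589 to 0.720). That was past the fold limit, as were 6.21% of all genes in that class. In S cells the ratio was 0.773 (0.629 to 0.95) and in G2/M cells 0.876 (0.740 to 1.04). In both libraries Cdkn1b was lowest in S cells, at 18.8 and 14.5 CPM.

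Trp53 and Phlda3 had opposite cell cycle patterns, each the same in both libraries. Trp53 was highest in S cells, at 141 and 114 CPM, then in G2/M cells, at 113 and 100.3 CPM, and lowest with no call, at 88.0 and 72.9 CPM. Phlda3 was highest with no call, at 142 CPM in each library, and lower in S cells, at 71.3 and 89.1 CPM, and G2/M cells, at 85.1 and 97.7 CPM. Gdf15 was highest in S cells, at 47.2 and 47.7 CPM against 34.6 and 32.5 CPM with no call. Gadd45a was lowest in G2/M cells, at 41.8 and 36.4 CPM. Mdm2 in IgG was lower in S cells (26.8 CPM) and G2/M cells (29.9 CPM) than with no call (38.2 CPM), and in aPD-1 its 3 levels, from 32.4 to 35.7 CPM, had overlapping intervals. Cdkn2a and Ccng1 had ratios to no call of 0.804 to 1.12 over both. The lowest were in aPD-1 S cells, at 0.864 (0.76 to 0.98) for Cdkn2a and 0.804 (0.70 to 0.92) for Ccng1. S cells were deeper than cells with no call, with medians of 28574 and 22158 UMIs against 19413 and 15004, and what part depth, or for Phlda3 the fibroblast markers it moved with, has in these differences was not tested.

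**Figure D5:**
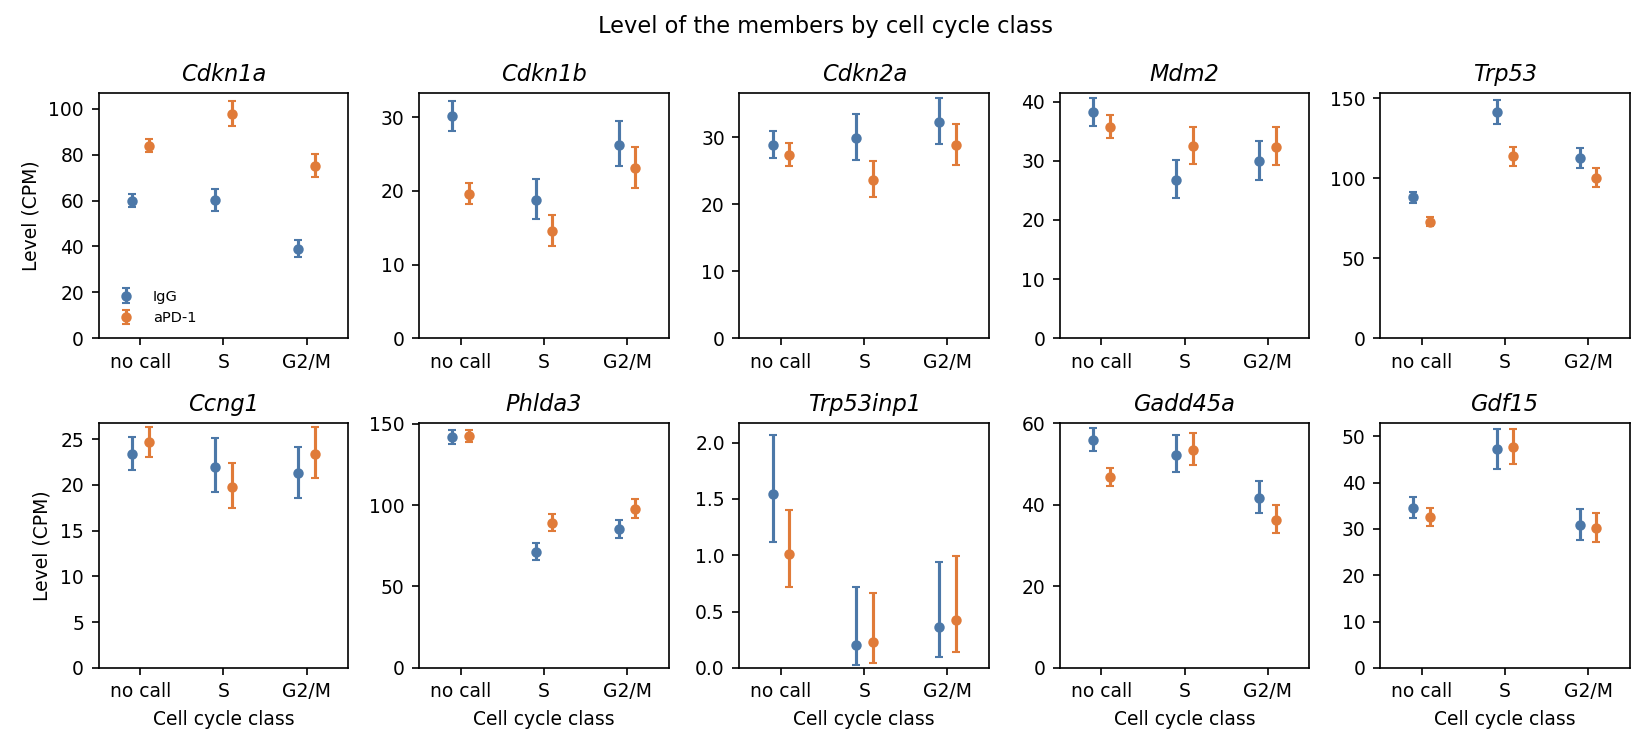
Level in CPM of each gene in cells with no call, S cells and G2/M cells, for the IgG and aPD-1 libraries, with Poisson 95% intervals and an axis from 0 for each gene. Cdkn1a is higher in aPD-1 in all 3 classes, Trp53 is highest in S cells and Phlda3 is highest in cells with no call.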

How the data were processed

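The deposited values are UMI counts per gene and barcode, not normalised, in 1 matrix per library with a software version of 3.0.2 per the file headers. The submitters' processing notes name Cell Ranger, Seurat 2.1.0 and build mm10, and no source used here gives the aligner settings or gene annotation. For IgG 4351 barcodes were deposited, all of 500 or more UMIs, and for aPD-1 737280, of which 523832 had a UMI.

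Cells of 5000 or more UMIs and at most 10% mitochondrial UMIs were kept, leaving out 89 IgG and 81 aPD-1 barcodes over that share. Doublets were neither called nor removed. UMIs were summed per library and divided by the sum of all genes (CPM). Levels carry exact Poisson, ratios conditional binomial and shares Clopper-Pearson 95% intervals. A gene was called when its mean was at least 10 CPM and its ratio at least 1.5-fold in either direction. Log2 ratios carry a pseudocount of 1 CPM, which shrinks those of low genes. Detection after thinning to 5000 UMIs is the expected value, and correlations are means of 10 thinnings. Depth limits precision: 50 UMIs of Trp53inp1 give an interval of 0.473 to 1.11 on its ratio.

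The genes and lists were chosen with earlier results of these data known. All 10 genes are described, as are up to 4 extreme genes of each list and the 8 genes most like Cdkn1a and Gdf15 by r in IgG cells, leaving out ribosomal, mitochondrial and unnamed models. Other genes are named after their values were seen. The steps were tested on simulated counts. Alternatives covered the cell filters, scaling, pseudocount, level minimum, fold, thinning, class limits and cells high in macrophage, endothelial or fibroblast markers. Gene models came from GENCODE M21 and promoters from RefSeq, both on GRCm38. Python 3.11.15, numpy 2.4.6, scipy 1.17.1 and pandas 2.3.3 were used.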

Additional observations from a re-analysis of the deposited data

Results flagged for a closer look

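Barcodes of 500 to under 5000 UMIs entered none of the main comparisons. Those of 2000 or more, with at most 10% mitochondrial UMIs, entered an alternative with a lower depth floor. In the whole range the level of 5 of the genes was higher in aPD-1 with an interval of the ratio above 1. Mdm2 was higher too, at 37.9 against 29.6 CPM, with an interval of 0.882 to 1.85. Cdkn2a was at 48.6 CPM in aPD-1 and 24.4 in IgG, Trp53 at 78.6 and 42.8, Phlda3 at 76.4 and 46.8, Gadd45a at 57.1 and 28.4, and Gdf15 at 60.0 and 28.0 CPM. Cdkn1a had the opposite order there, at 55.0 CPM under aPD-1 and 86.0 under IgG, or 0.640 as a ratio (0.487 to 0.834), against 1.54 in the cells described above. There were 2064 such barcodes in IgG, of which 69.7% had over 10% mitochondrial UMIs and 319 carried macrophage markers, and 1013 in aPD-1, of which 66.0% did and 53 carried them. The median mitochondrial share of these barcodes was 68.95% in IgG and 55.74% in aPD-1, and mitochondrial UMIs are part of the CPM total. What part these differences have in the values was not tested, and no share over all genes was taken beside the 5.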

How the results depend on the processing

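The count of called genes was 1 (Cdkn1a) and moved under 3 alternatives. It went to 0 at a limit of 5% mitochondrial UMIs (against 3.31% of all genes) and to 0 at 2-fold (against 0.388%). At a limit of 0.32 on the log2 ratio it was 2 (Cdkn1a and Cdkn1b, against 21.1% of all genes). Within cells with no cell cycle call the count was also 1, against 6.21% of all genes, but the gene was Cdkn1b. Over the 14 settings of the log2 ratio, Cdkn1a ran from 0.48 to 0.93 and was above 0 in all 14, and Cdkn1b ran from -0.59 to -0.18 and was below 0 in all 14. Trp53 and Cdkn2a were also below 0 in all 14 and Phlda3 above it, while Mdm2, Ccng1, Gadd45a, Gdf15 and Trp53inp1 took both signs. The count of gene pairs with an r of at least 0.1 in both libraries was 1 and became 2 without thinning, Cdkn1a with Gdf15 being added. Leaving out the cells highest in fibroblast markers was chosen after seeing the data. Shares of cells with a UMI moved with depth for all 10 genes, and for Cdkn1a were 9.79% and 14.4% at 2000 UMIs. No paired analysis was possible because each antibody has 1 library, and for the same reason no library could be left out. At this depth no direction can be given for Trp53inp1.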

Other observations

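The genes most like Trp53 and Phlda3 across cells, looked up after the results above were seen, had little in common with each other. With Trp53 the highest r in IgG cells were those of Atp5b (0.15), a subunit of the mitochondrial ATP synthase, Ppia (0.14), Hspa5 (0.13) and Tuba1b (0.13), and in aPD-1 cells these had an r of 0.12, 0.16, 0.12 and 0.12. With Phlda3 they were Igfbp6 (0.21), a binding protein of insulin-like growth factors, Lgals3 (0.18), Col6a3 (0.14) and Malat1 (0.13), with 0.19, 0.14, 0.13 and 0.16 in aPD-1 cells. Lgals3 was thus high on the lists of both Phlda3 and Cdkn1a, whose own r with each other was 0.07 and 0.06.

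Barcodes of 5000 or more UMIs left out for over 10% mitochondrial UMIs, 89 in IgG and 81 in aPD-1, had higher levels of several of the genes than the kept cells of both libraries. Gdf15 was at 74.0 CPM (56.4 to 95.5) in IgG and 90.4 CPM (67.9 to 118) in aPD-1, and Cdkn2a was at 60.2 (44.4 to 79.9) and 73.6 CPM (53.5 to 98.9). Trp53 was at 136 CPM in both. Phlda3 was lower there than in kept cells, at 75.3 CPM (57.5 to 96.9) and 56.9 CPM (39.4 to 79.5). Ccng1, at 12.5 and 11.7 CPM, had intervals that reach its level in kept cells.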
